A study of Mus musculus with 17 samples.

Results

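A set of 9 genes of natural killer (NK) cell cytotoxicity was followed across sorted mouse myeloid cells: Gzma, Gzmb, Prf1, Nkg7, Klra8, Klrd1, Ncr1, Ccl5 and Tbx21. They were selected on their measured levels in the arrays of the spleen granulocyte gate, where they stood out, so their levels there are a description and carry no test. Every probe set annotated to exactly 1 of the 9 symbols was taken, which gave 10 of the 45037 probe sets on the array and 9 of the 17097 genes with a symbol of their own. Prf1 had 2 probe sets and each of the other 8 genes had 1. For 6 of the 9 genes the 3 granulocyte arrays lay above all 14 other arrays. The other 3 did not set the granulocyte gate apart: Klrd1 was as high in spleen macrophages, Nkg7 was as high or higher in most bone marrow progenitor pools, and the granulocyte range of Gzmb overlapped that of the VENUS-negative progenitors.

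NK cells kill infected or transformed cells by releasing granules that hold the pore-forming protein perforin and proteases called granzymes. Activating and inhibitory receptors on the surface decide whether the granules are released, and the transcription factor T-bet, encoded by Tbx21, drives the maturation of the cells. Several of these genes are also used by cytotoxic T cells, and NK cells that have matured in the mouse carry CD11b, a surface protein also used to sort myeloid cells.

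The study measured RNA on Affymetrix arrays of flow-sorted cells from mice aged 6 to 10 weeks, 17 arrays in 6 groups, to set changes in IRF8-deficient progenitors beside the expression of mature myeloid cells. IRF8 is a transcription factor of the monocyte and dendritic cell lineages, and the progenitors are myelo-dendritic progenitors (MDPs), bone marrow cells that can give rise to both. Spleen granulocytes (wild-type, CD11c-CD11b+Ly6C+MCSFR-, 3 pools) and spleen macrophages (wild-type, CD11c-CD11b+MCSFR+, 3 pools) were the mature populations. All MDPs were sorted from bone marrow as lineage-sca1-CD127-CD117+MCSFR+ cells. They came as 3 pools titled IRF8_ko_MDP and labelled IRF8-deficient, 2 pools titled IRF8_neg_MDP without VENUS expression, 3 pools titled IRF8_PAC_MDP from reporter mice with VENUS expression, and 3 wild-type pools. The genotype field of both VENUS groups reads IRF8-deficient as well. What this means for reporter mice, the strain and the antibodies of the lineage gate are not stated in the labels or the design text. A pool of spleen cells, of wild-type MDPs or of knockout-labelled MDPs held cells of 5 mice, and for the VENUS pools no number is stated. Dendritic cell samples that the design names were not analysed here.

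Some facts of the whole series bear on the results. Irf8 itself averaged 10.31 ± 0.12 in the knockout-labelled MDPs against 10.34 ± 0.19 in wild-type MDPs (log2 level, SD, n = 3 each; limma adjusted p = 0.995), so the level of Irf8 did not set these groups apart, and the position of its probes relative to the deletion is not stated. Ly86, a surface protein gene of myeloid cells, did: it averaged 3.40 ± 0.42 in knockout-labelled against 10.08 ± 0.20 in wild-type MDPs (n = 3 each; limma adjusted p = 1.62e-08), and 4.51 ± 0.48 in VENUS-negative (n = 2) against 10.25 ± 0.35 in VENUS-positive MDPs (n = 3). The pools are named by their label. In the VENUS-negative MDPs Irf8 averaged 5.87 ± 0.54 (n = 2) against 10.88 ± 0.19 in VENUS-positive MDPs (n = 3). Pool 3 of the wild-type MDPs stood apart from wild-type pools 1 and 2: it was the highest of the 3 for 16 of 20 neutrophil genes, 11 of 13 eosinophil, basophil and mast cell genes and 14 of 18 monocyte and macrophage genes, against 40.1% of all genes. Some results that rest on it are given with and without it, and the other values of wild-type MDPs include it. In the spleen granulocytes, the mean of 20 neutrophil genes lay between 10.26 and 10.94 and S100a8, a calcium-binding protein gene of neutrophils, at 13.11, 13.37 and 13.47, while Csf1r, the gene of the M-CSF receptor by whose absence the gate was set, lay at 7.16, 8.19 and 8.56, against 9.70 to 9.93 in spleen macrophages.

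Levels below are the deposited log2 values, where 1 unit is a factor of 2. The lower quartile of the genes of an array was 3.48 to 3.74, and no fold is given against a level under that quartile. A log2 difference against such a level, in the lists and medians below, is that of the measured values and is not read as the size of a change. The probe sets measure different sequences with different efficiency, so levels of different genes are not compared with each other.

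The promoter windows of 4 of the genes are shown as examples of the patterns found: Gzma and Ncr1 were highest in the granulocytes, Gzmb was above the lower quartile in the granulocytes and the VENUS-negative MDPs, and Nkg7 had its highest means in the VENUS-negative and knockout-labelled MDPs. Each runs 5′ to 3′ on the gene's strand from 250 bases before to 50 bases after the RefSeq transcription start (RefSeq, GRCm38.p6). Their positions are chr13:113100932-113101231 on the minus strand for Gzma, chr14:56262285-56262584 on the minus strand for Gzmb, chr7:4337465-4337764 on the plus strand for the first of the 2 Ncr1 windows, and chr7:43436888-43437187 on the plus strand for Nkg7. Capitals mark matches to the RUNX motif TGTGGT or its complement ACCACA, and to the T-box motif GGTGTGA or its complement TCACACC, the kind of site T-bet binds.
Gzma: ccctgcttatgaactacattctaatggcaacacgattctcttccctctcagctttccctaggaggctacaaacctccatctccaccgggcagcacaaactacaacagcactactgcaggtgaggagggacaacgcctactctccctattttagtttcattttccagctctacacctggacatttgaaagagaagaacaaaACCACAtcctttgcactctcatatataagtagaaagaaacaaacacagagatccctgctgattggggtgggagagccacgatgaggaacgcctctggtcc
Gzmb: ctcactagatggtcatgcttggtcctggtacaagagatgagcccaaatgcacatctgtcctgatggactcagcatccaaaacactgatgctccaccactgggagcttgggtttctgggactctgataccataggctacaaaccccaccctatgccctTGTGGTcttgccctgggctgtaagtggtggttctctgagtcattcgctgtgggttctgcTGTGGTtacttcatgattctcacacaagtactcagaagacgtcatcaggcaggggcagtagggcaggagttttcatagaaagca
Ncr1: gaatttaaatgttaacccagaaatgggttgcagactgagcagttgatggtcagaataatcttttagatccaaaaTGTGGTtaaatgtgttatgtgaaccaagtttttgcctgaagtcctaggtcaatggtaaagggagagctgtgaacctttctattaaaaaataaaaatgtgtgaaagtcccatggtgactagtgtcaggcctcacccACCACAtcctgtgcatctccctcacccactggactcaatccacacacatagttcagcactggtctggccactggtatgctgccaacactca
Nkg7: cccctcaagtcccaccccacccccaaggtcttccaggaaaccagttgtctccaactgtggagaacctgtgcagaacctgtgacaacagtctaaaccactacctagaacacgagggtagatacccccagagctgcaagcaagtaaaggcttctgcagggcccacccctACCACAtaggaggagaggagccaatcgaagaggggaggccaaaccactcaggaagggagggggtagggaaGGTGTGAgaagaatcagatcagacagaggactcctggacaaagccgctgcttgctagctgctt

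Windows were found for 7 of the 9 genes, 9 windows in all. Nkg7 alone among them held a T-box match (1, beside 1 RUNX match); such a match stood in 3.98% of 32851 mouse promoter windows of the same length. Gzmb and Ncr1 held 2 RUNX matches each, Gzma and Prf1 1 each, and the windows of Klra8 and Tbx21 none of either motif, where 16.8% of all windows held a RUNX match. Both strands were searched and no match overlapped another. These matches describe the letters in the windows and were not tested as binding sites.

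Gzma, the granule protease granzyme A, had the widest range of the 9 genes. Its levels were 10.51, 10.50 and 11.61 in granulocyte pools 1 to 3, against 4.28, 5.38 and 5.89 in macrophage pools 1 to 3. In MDPs they were 3.23, 2.72 and 3.08 in the knockout-labelled pools, 2.93 and 2.98 in the VENUS-negative pools, 3.59, 3.14 and 4.10 in the VENUS-positive pools, and 2.99, 2.72 and 7.41 in the wild-type pools. All 3 granulocyte pools were far above every other array, and wild-type MDP pool 3 was the highest of the rest. The granulocyte mean was 10.88 ± 0.63 against 5.18 ± 0.82 in macrophages (SD, n = 3 each), a difference of 5.69 log2 units or 51.7-fold.

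Gzmb encodes granzyme B, a protease that activates caspases in the target cell. It read 5.93, 6.32 and 6.87 in the granulocyte pools, against 3.45, 3.45 and 3.22 in the macrophage pools. MDP levels were 2.95, 2.91 and 3.11 in the knockout-labelled pools, 4.47 and 6.73 in the VENUS-negative pools, 3.00, 3.25 and 3.16 in the VENUS-positive pools, and 3.12, 3.04 and 2.88 in the wild-type pools. Granulocytes and VENUS-negative MDPs were thus the groups with Gzmb above the lower quartile of the array, and the 2 VENUS-negative pools differed from each other by more than the 3 granulocyte pools did. The granulocyte mean was 6.37 ± 0.47 and that of macrophages, under the lower quartile, 3.38 ± 0.13 (SD, n = 3 each).

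Prf1, the gene of perforin, varied least. Its brighter probe set read 8.02, 8.19 and 7.87 in granulocytes, against 7.29, 7.25 and 7.22 in macrophages. The MDPs gave 7.26, 6.80 and 7.59 in the knockout-labelled pools, 7.30 and 6.75 in the VENUS-negative pools, 7.45, 6.87 and 7.31 in the VENUS-positive pools, and 6.96, 7.01 and 6.95 in the wild-type pools. The granulocyte arrays were above all others by a small margin, with a difference from macrophages of 0.77 log2 units or 1.71-fold. The second Prf1 probe set read 5.46, 5.26 and 4.75 in granulocytes, against 4.02, 4.07 and 4.14 in macrophages and 3.76 to 4.30 over the 11 MDP arrays. Both probe sets put the granulocytes on top, and in both granulocyte pool 3 was the lowest of its group.

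Nkg7, a membrane protein of cytotoxic granules, was arranged differently. It read 7.28, 6.84 and 7.92 in granulocytes, against 4.80, 4.05 and 4.25 in macrophages. In MDPs it read 8.27, 7.81 and 8.63 in the knockout-labelled pools, 8.20 and 8.93 in the VENUS-negative pools, 6.29, 6.53 and 6.31 in the VENUS-positive pools, and 7.06, 6.86 and 8.56 in the wild-type pools. The order of the group means was VENUS-negative MDPs, knockout-labelled MDPs, wild-type MDPs, granulocytes, VENUS-positive MDPs and macrophages. Each of the first 4 overlapped the next among them, while VENUS-positive MDPs lay below the granulocytes and macrophages below VENUS-positive MDPs with no overlap. Granulocytes exceeded macrophages by 2.98 log2 units (7.89-fold) and differed from wild-type MDPs by -0.14.

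**Figure D1:**
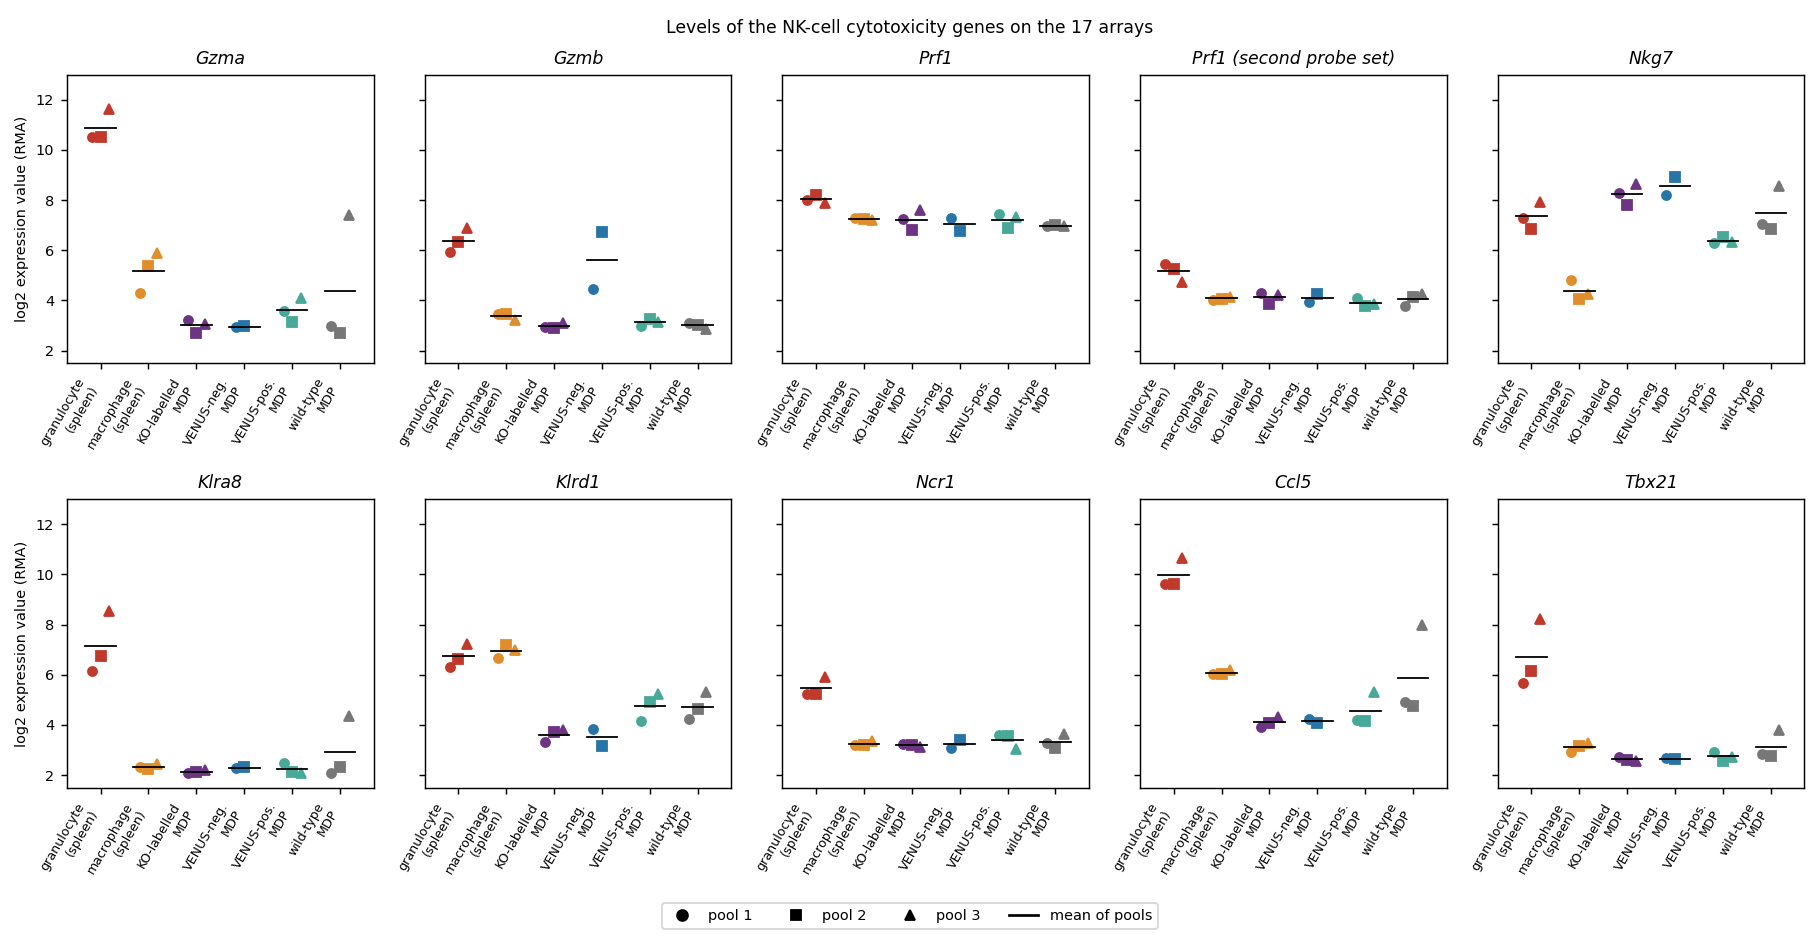
Log2 expression value (vertical axis) of the 9 NK-cell cytotoxicity genes on each of the 17 arrays, by group (horizontal axis), with circles, squares and triangles for pools 1, 2 and 3 and a line at the mean of the pools. Granulocyte arrays were above all others for Gzma, Prf1, Klra8, Ncr1, Ccl5 and Tbx21, while Nkg7 was highest in VENUS-negative and knockout-labelled MDPs and Klrd1 was shared by granulocytes and macrophages.

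Klra8 encodes Ly49H, an activating lectin-like receptor. Its probe set is of a design that can match several members of the Ly49 family, so its signal may come in part from related genes. It read 6.15, 6.75 and 8.55 in granulocytes, against 2.33, 2.26 and 2.43 in macrophages. Over the MDPs it read 2.09 to 2.19 in the knockout-labelled pools, 2.28 and 2.31 in the VENUS-negative pools, 2.09 to 2.48 in the VENUS-positive pools, and 2.07, 2.31 and 4.34 in the wild-type pools. Outside the granulocytes only wild-type MDP pool 3 lay above the lower quartile of the array. The granulocyte mean was 7.15 ± 1.25 and that of macrophages 2.34 ± 0.08 (SD, n = 3 each), so the granulocyte pools also differed widely among themselves.

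Klrd1, the gene of CD94, which pairs with NKG2 receptors to read MHC class I, did not set the granulocytes apart. It read 6.33, 6.64 and 7.23 in granulocytes, against 6.66, 7.17 and 6.97 in macrophages. MDP levels were 3.31, 3.71 and 3.80 in the knockout-labelled pools, 3.85 and 3.17 in the VENUS-negative pools, 4.17, 4.90 and 5.22 in the VENUS-positive pools, and 4.25, 4.63 and 5.31 in the wild-type pools. The 2 spleen populations overlapped and both lay above every MDP array. Among the MDPs, the VENUS-positive and wild-type pools overlapped each other and lay above the knockout-labelled and VENUS-negative pools, which also overlapped. The granulocyte minus macrophage difference was -0.20 log2 units.

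Ncr1, the gene of NKp46, an activating receptor found on NK cells and some innate lymphoid cells, was near the lower quartile of the array everywhere but in the granulocytes. It read 5.22, 5.23 and 5.92 there, against 3.21, 3.19 and 3.37 in macrophages. The 11 MDP arrays lay between 3.03 and 3.66, with wild-type pool 3 the highest of them. The 5 other groups overlapped their neighbours in the order of means. The granulocyte mean was 5.46 ± 0.40 and that of macrophages, under the lower quartile, 3.25 ± 0.10 (SD, n = 3 each).

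Ccl5, a chemokine that attracts T cells, monocytes and eosinophils, read 9.62, 9.61 and 10.65 in granulocytes, against 6.02, 6.04 and 6.20 in macrophages. In MDPs it read 3.91, 4.06 and 4.33 in the knockout-labelled pools, 4.25 and 4.07 in the VENUS-negative pools, 4.19, 4.14 and 5.33 in the VENUS-positive pools, and 4.90, 4.76 and 7.97 in the wild-type pools. As for Gzma, the granulocytes were above all other arrays and wild-type MDP pool 3 was next. Granulocytes exceeded macrophages by 3.88 log2 units or 14.7-fold.

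Tbx21, the gene of T-bet, read 5.68, 6.16 and 8.23 in granulocytes, against 2.93, 3.15 and 3.29 in macrophages. It read 2.72, 2.59 and 2.58 in the knockout-labelled MDPs, 2.67 and 2.63 in the VENUS-negative MDPs, 2.94, 2.57 and 2.74 in the VENUS-positive MDPs, and 2.83, 2.77 and 3.81 in the wild-type MDPs. Granulocytes were above all other arrays, with pool 3 well above pools 1 and 2, and the others were under the lower quartile of the array except wild-type MDP pool 3. The granulocyte mean was 6.69 ± 1.36 and that of macrophages 3.13 ± 0.18 (SD, n = 3 each).

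Over the 9 genes, the median difference of granulocytes from macrophages was 3.00 log2 units, beside 0.09 over all 17097 genes, and that from wild-type MDPs was 3.36, beside 0.10. In 8 of the 9 genes all granulocyte arrays were above all macrophage arrays, a position that 25.2% of all genes held. The exception was Klrd1. Likewise 8 of 9, all but Nkg7, had granulocyte arrays above all wild-type MDP arrays, beside 28.2% of all genes. The 6 genes above all 14 other arrays compare with 10.4% of all genes. Since these arrays chose the genes, the counts describe the choice and are no evidence for it. The 2 comparisons share the granulocyte arrays. In sorted bulk RNA, a change in the number of cells of a type and a change in RNA per cell cannot be told apart.

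The 3 granulocyte pools were not alike. Pool 3 was the highest for 8 of the 9 genes, all but Prf1, and exceeded the mean of pools 1 and 2 by a median of 0.86 log2 units. By this measure Tbx21 stood at 2.31, Klra8 at 2.10, Gzma at 1.10 and Ccl5 at 1.04. Pool 3 was the highest for 30.4% of all genes and for 6 of 20 neutrophil genes, whose median was 0.16. Other lists went both ways, with 16 of 26 other NK receptor and surface genes, 7 of 12 B-cell genes and 2 of 11 NK transcription factor genes highest there. In the wild-type MDPs, pool 3 was the highest for 7 of the 9 genes, beside 40.1% of all genes, with a median of 1.01. The differences were 4.55 for Gzma, 3.14 for Ccl5, 2.15 for Klra8 and 1.60 for Nkg7, while Gzmb (-0.20) and Prf1 (-0.03) did not share the rise. The neutrophil genes of that array stood 1.26 log2 units above wild-type pools 1 and 2 in the median, and the eosinophil, basophil and mast cell genes 1.96. The part that other cells in a pool play in these levels was not tested.

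**Figure D2:**
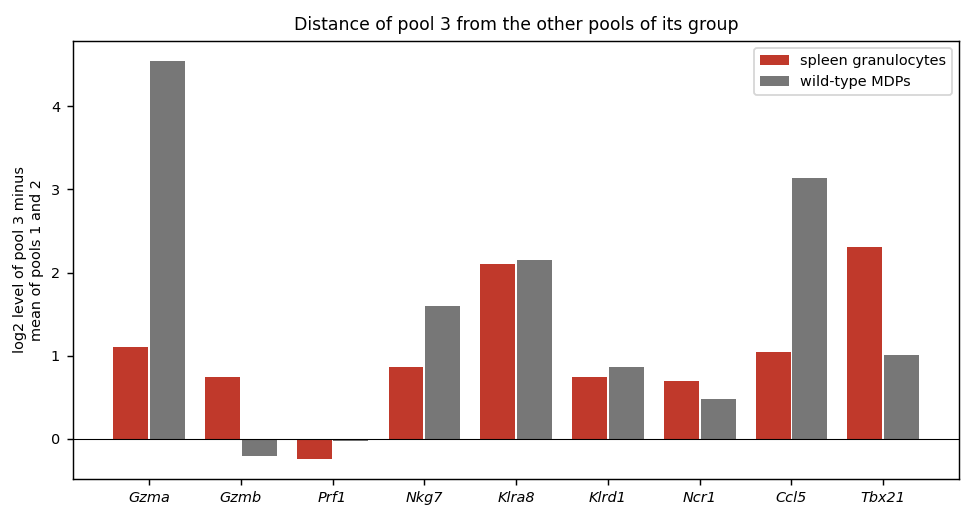
Log2 level of pool 3 minus the mean of pools 1 and 2 (vertical axis) for each of the 9 genes, in spleen granulocytes (red bars) and wild-type MDPs (grey bars). The bars reach 2.31 for Tbx21 in granulocytes and 4.55 for Gzma in wild-type MDPs, and both Prf1 bars are just below 0.

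Other genes of NK cells were read from lists of NK receptors, of granule, cytokine and signalling genes, and of transcription factors. Of 26 measured NK receptor and surface genes, 15 had granulocyte arrays above all macrophage arrays and 3 below (25.2% and 23.8% of all genes). Those above included the Ly49 family gene Klra9 by 4.98 log2 units, the IL-18 receptor chains Il18rap by 4.44 and Il18r1 by 4.22, the IL-2 receptor beta chain Il2rb by 2.47, the inhibitory receptor Klrg1 by 2.44, Klrc1, which encodes the CD94 partner NKG2A, by 1.87, and Klrb1c, which encodes NK1.1 in strains that carry it, by 1.52. Those below were S1pr5, a sphingosine-1-phosphate receptor (-2.09), Cd7 (-1.64) and Cd244a, the gene of 2B4 (-0.78). The list thus did not move as one, and S1pr5 at 9.04 to 9.61 and Cd244a at 10.76 to 11.09 were highest in macrophages. Il18r1 and Il18rap were above 9 in every granulocyte pool.

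In the list of granule, cytokine and signalling genes, 17 of 26 lay above and 3 below (25.2% and 23.8% of all genes). Those above included Serpinb6b (1.79), Fasl, the gene of Fas ligand (1.76), the protease gene Ctsw (1.68) and Hcst, the gene of the adaptor DAP10 (1.39). Of the 3 below, Lgals1 differed by -2.94, Sh2d1b1 by -1.45 and Fcer1g by -0.40. Of 11 transcription factor genes, Ets1 (2.37) and Eomes, the T-box factor that acts beside T-bet (0.72), lay above, and Runx3 (-2.21) and Zeb2 (-1.67) below. These values come from the contrast that chose the 9 genes and are given without a test.

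**Figure D3:**
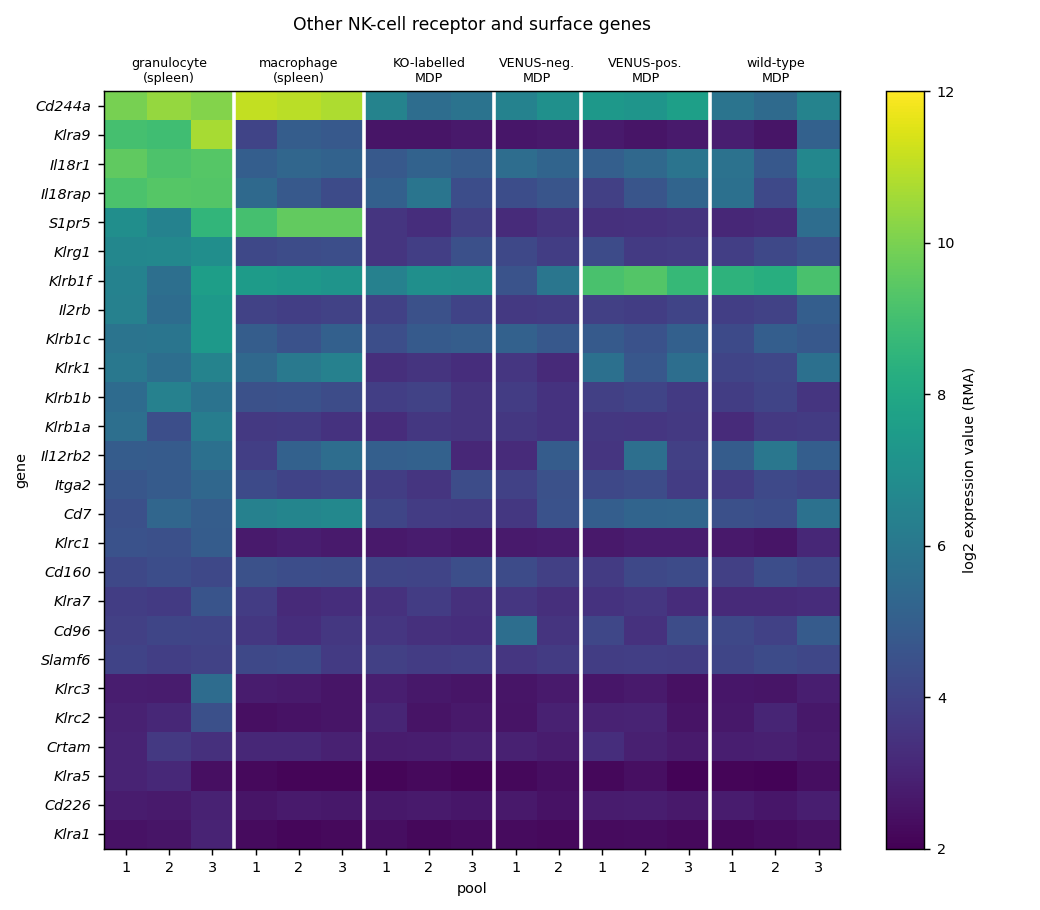
Log2 expression value (colour) of 26 NK receptor and surface genes other than the 9, one row per gene ordered by mean level in spleen granulocytes, one column per pool in the 6 groups. Klra9, Il18r1 and Il18rap are brightest in the granulocyte columns, Cd244a and S1pr5 are brighter in macrophages, and Klrb1f is brighter in VENUS-positive and wild-type MDPs than in VENUS-negative MDPs.

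Markers of other cells of the spleen were read beside these. The mean level of the 9 genes ran from 7.19 to 8.32 over the granulocyte pools, against 4.55 to 4.76 over the macrophage pools, 3.99 to 4.27 in knockout-labelled MDPs, 4.34 to 4.55 in VENUS-negative MDPs, 4.12 to 4.36 in VENUS-positive MDPs and 4.13 to 5.65 in wild-type MDPs. The mean of 18 T-cell genes was 4.19 to 4.39 in granulocytes and 3.87 to 3.94 in macrophages, and that of 12 B-cell genes 4.13 to 4.56 and 4.07 to 4.27. Of the 18 T-cell genes, 9 had granulocyte arrays above all macrophage arrays and 0 below, and of the 12 B-cell genes 5 and 1. Over all genes these shares were 25.2% above and 23.8% below. Against the wild-type MDP arrays, 2 T-cell genes lay above and 3 below, and 6 B-cell genes above and 1 below (28.2% and 25.1% of all genes). The mean of the T-cell genes ran from 4.06 to 4.44 over the MDP arrays, a range that holds the granulocyte values. Above all 14 other arrays lay 2 T-cell genes, Cd6 and Zap70, and 4 B-cell genes, Cd79a, Cr2, Ebf1 and Fcer2a (10.4% of all genes). Ebf1 and Fcer2a were under the lower quartile of the granulocyte arrays, and Zap70 was under it in granulocyte pools 1 and 3 (3.56 and 3.61). Cd247, the zeta chain that T-cell and NK receptors share, read 7.46, 7.02 and 6.97 in granulocytes. Its mean of 7.15 was the lowest of the 6 groups, against 7.30 in macrophages and 8.27 to 8.61 in the MDP groups. Among genes of the T-cell receptor complex, Cd3d read 5.87, 5.59 and 5.12 in granulocytes, above the median of the genes of those arrays (4.82 to 4.86). Cd3e read 4.03, 4.54 and 4.12 there, under that median. The T-cell surface gene Cd6 read 5.38, 5.34 and 5.46 in granulocytes, above all other arrays. Neutrophil genes averaged 10.26 to 10.94 in granulocytes and 6.10 to 6.90 in macrophages. The 13 eosinophil, basophil and mast cell genes averaged 4.95 to 5.50 in granulocytes and 3.81 to 3.86 in macrophages. Of them 7 lay above all macrophage arrays and 1 below (25.2% and 23.8% of all genes). Among them Hdc, which makes histamine, read 11.65, 11.78 and 11.90 in granulocytes. Siglecf, a surface receptor of eosinophils, read 7.17, 8.42 and 8.49 there and the eotaxin receptor Ccr3 4.72, 6.71 and 6.86. Not all rose: Epx averaged 4.48 in granulocytes against 4.47 in macrophages, and Mcpt8 4.04 against 4.36. Cpa3, Ms4a2 and Fcer1a were under the lower quartile of the arrays in both groups. Which cells of the gate carried the 9 transcripts was not tested.

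**Figure D4:**
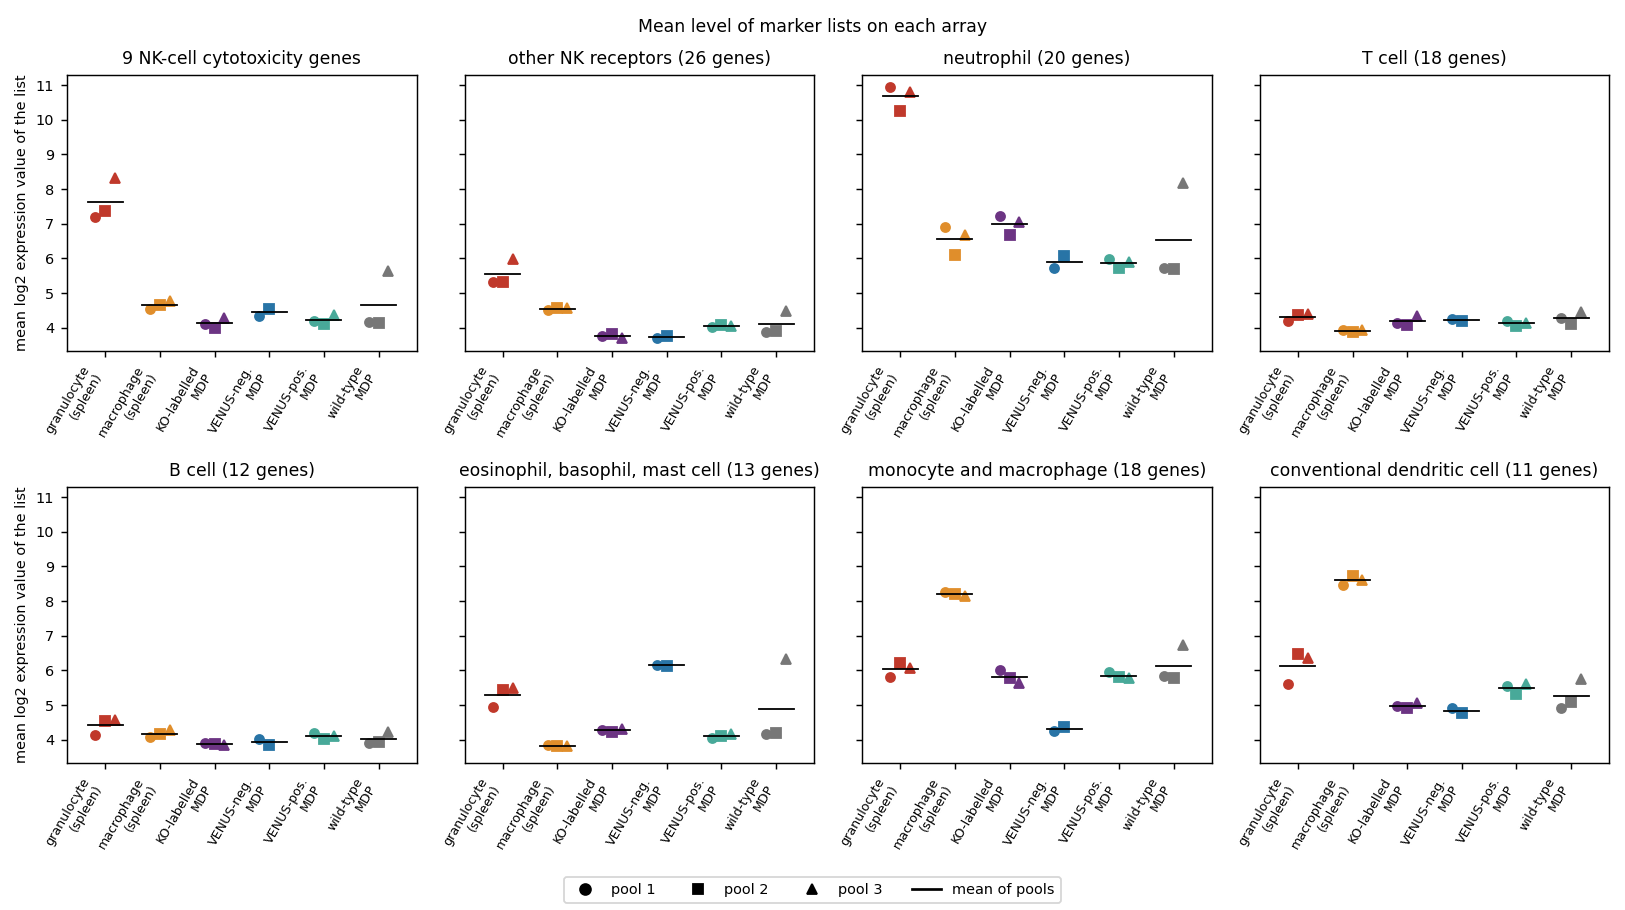
Mean log2 expression value of a marker list (vertical axis) on each array, by group, with circles, squares and triangles for pools 1, 2 and 3 and a line at their mean. The 9 genes, the other NK receptors and the neutrophil genes were highest in granulocytes, T-cell and B-cell genes stayed between 3.85 and 4.56 in all 6 groups, and wild-type MDP pool 3 lies above pools 1 and 2 in several panels.

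By Pearson correlation with the mean of the 9 genes over the 17 arrays, the most alike genes were Klra9 (r = 0.981), Klrc1 (0.979), the retinol dehydrogenase Rdh12 (0.972), the survival gene Bcl2l1 (0.971), the chemokine receptor Cxcr3 (0.971), Klrg1 (0.964), Lrg1 (0.964), the neutrophil granule gene Ltf (0.960), Folr1 (0.959) and Il18r1 (0.959). Over the 14 arrays that are not granulocytes the same genes gave r from 0.590 for Klrg1 to 0.828 for Klra9. The arrays share their groups and tissues, so these figures describe likeness only. Klra9 read 8.94 to 10.71 in granulocytes, 4.05 to 4.93 in macrophages and at most 2.83 in the MDPs except wild-type pool 3, at 5.11.

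Tests were made in the 3 comparisons that hold no granulocyte array. Their SE and p-values still draw on the spread within all 6 groups, that of the granulocytes and of wild-type pool 3 included. The first asks how the knockout label relates to these genes in MDPs. None of the 9 genes passed the test between knockout-labelled and wild-type MDPs, where 155 of 17097 genes did (0.907%; limma, Benjamini-Hochberg adjusted p under 0.05), and 2 had an unadjusted p under 0.05, as 8.67% of all genes had. The lowest adjusted p was that of Klrd1, with 3.61 ± 0.26 in knockout-labelled against 4.73 ± 0.53 in wild-type MDPs (SD, n = 3 each), a difference of -1.12 (SE 0.32, limma adjusted p = 0.169). Without wild-type pool 3 the Klrd1 difference was -0.84 (limma adjusted p = 0.448). Ccl5 differed by -1.78 (SE 0.63, limma adjusted p = 0.329), and by -0.73 without wild-type pool 3. Gzma differed by -1.37 (SE 0.89, limma adjusted p = 0.800), and by 0.15 without that pool. Nkg7 differed by 0.75 (SE 0.40, limma adjusted p = 0.690), and by 1.28 without that pool (adjusted p = 0.117). Ccl5, Tbx21 and Klrd1 had all knockout-labelled arrays below all wild-type arrays, as 7.02% of genes did. The median difference, that of Tbx21, was -0.51 beside 0.01 over all genes. This median rests in part on wild-type pool 3. Without that pool Tbx21 differed by -0.17, and Klra8 by -0.06 in place of -0.78. In the 3 companion lists of 26, 26 and 11 genes, limma called 0, with 6, 1 and 2 at an unadjusted p under 0.05 (8.67% of all genes), and called 1 receptor gene without wild-type pool 2.

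Between VENUS-negative and VENUS-positive MDPs, 2 of the 9 genes passed the test, both higher in the VENUS-negative pools, beside 2.85% of all genes called higher and 3.02% called lower. Gzmb averaged 5.60 ± 1.60 (SD, n = 2) in VENUS-negative and 3.13 ± 0.12 (SD, n = 3) in VENUS-positive MDPs, a difference of 2.47 log2 units (SE 0.44, limma adjusted p = 0.00275). The VENUS-negative pools were far apart (4.47 and 6.73), and the difference was 1.33 without VENUS-negative pool 2 and 3.60 without VENUS-negative pool 1, fits that leave 1 VENUS-negative array and take its spread from the other groups. All VENUS-positive levels of Gzmb were under the lower quartile of the array. In a limma fit of these 5 arrays alone the adjusted p was 0.149. Nkg7 averaged 8.56 ± 0.51 in VENUS-negative (n = 2) and 6.38 ± 0.13 in VENUS-positive MDPs (n = 3), 4.55-fold higher (difference 2.19, SE 0.45, limma adjusted p = 0.00755). Without VENUS-negative pool 2 that difference was 1.82 and was not called (limma adjusted p = 0.0960), with the lone VENUS-negative array assumed to vary like the other groups.

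Klrd1 was on the other side: 3.51 ± 0.48 in VENUS-negative and 4.76 ± 0.54 in VENUS-positive MDPs, a difference of -1.25 (SE 0.36, limma adjusted p = 0.0590). It passed the threshold without VENUS-positive pool 1 (-1.55, limma adjusted p = 0.0217). The other 6 genes differed by -0.66 (Gzma) to 0.07 (Klra8), with limma adjusted p from 0.813 to 0.983. For Tbx21 the SD was 0.03 in VENUS-negative and 0.18 in VENUS-positive pools, against 1.36 in granulocytes, a spread that enters its p-value. The median over the 9 genes was -0.14 beside -0.01 over all genes.

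Among the companion genes, 2 of 26 receptors fell in VENUS-negative MDPs, Klrb1f, a lectin-like receptor (-3.79), and Klrk1, the gene of NKG2D (-1.94), and none rose, with 4 at an unadjusted limma p under 0.05 (16.5% of all genes). Of 26 granule, cytokine and signalling genes, Serpinb6b, a serpin, rose (3.16) and Tyrobp, the gene of DAP12 (-2.36), Fcer1g, the Fc receptor gamma chain (-1.96), and Lgals1, galectin-1 (-1.19), fell. Of 11 transcription factors Zbtb16, the gene of PLZF, rose (2.00) and Nfil3, which NK cells need in development, fell (-2.73). Klrb1f read 4.57 and 5.94 in VENUS-negative and 8.70 to 9.33 in VENUS-positive MDPs. Over all genes 2.85% were called higher in VENUS-negative MDPs and 3.02% lower. With single arrays left out, a comparison added after seeing the data, 1 receptor gene in place of 2 was called without VENUS-positive pool 1, VENUS-positive pool 3 or VENUS-negative pool 1, and 1 transcription factor in place of 2 without either VENUS-negative pool.

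Genes of other granule-bearing cells moved in the same comparison, where 2.85% of all genes were called higher and 3.02% lower. In the list of 13 genes of eosinophils, basophils and mast cells, 5 were higher in VENUS-negative MDPs: the mast cell protease Cpa3 (5.52), the IgE receptor chain Ms4a2 (5.52), Hdc, which makes histamine (3.03), Siglecf (2.91) and the basophil protease Mcpt8 (1.71). The list averaged 6.12 to 6.17 in VENUS-negative and 4.04 to 4.18 in VENUS-positive pools. Of 18 monocyte and macrophage genes 7 were lower, and that list averaged 4.25 to 4.36 in VENUS-negative and 5.79 to 5.95 in VENUS-positive pools. The part of such cells in the Gzmb and Nkg7 differences was not tested.

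**Figure D5:**
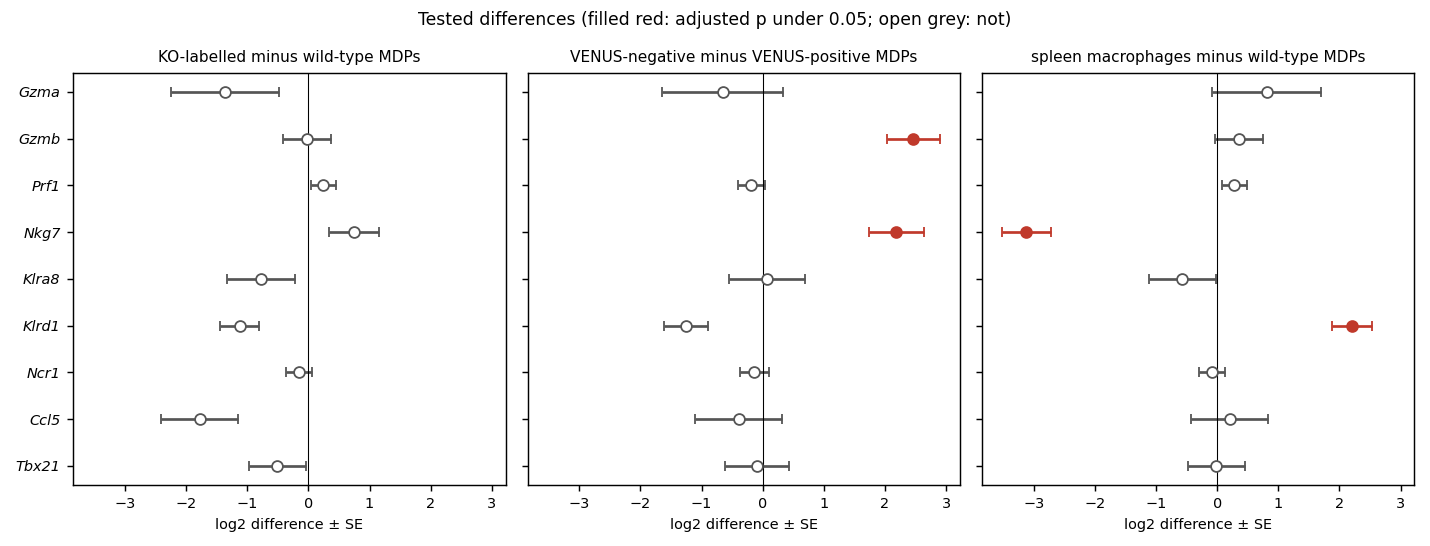
Log2 difference with its standard error (horizontal axis) for the 9 genes in the 3 comparisons without granulocyte arrays, from limma over all 17 arrays, with filled red points for an adjusted p under 0.05 and open grey points otherwise. Gzmb and Nkg7 are filled and right of 0 for VENUS-negative minus VENUS-positive MDPs, and Nkg7 (-3.12) and Klrd1 (2.20) for macrophages minus wild-type MDPs.

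The last comparison set the mature spleen macrophages against wild-type MDPs. Klrd1 was higher in macrophages, 6.93 ± 0.25 against 4.73 ± 0.53 in wild-type MDPs (SD, n = 3 each), a difference of 2.20 log2 units or 4.61-fold (SE 0.32, limma adjusted p = 1.34e-04). Nkg7 was lower in macrophages, 4.37 ± 0.39 against 7.49 ± 0.93, a difference of -3.12 log2 units, 8.72-fold lower (SE 0.40, limma adjusted p = 4.02e-05). One of 9 genes higher and 1 lower stand beside 11.4% and 12.2% of all genes. Without wild-type pool 3 Gzma (2.33, limma adjusted p = 0.00132) and Ccl5 (1.26, limma adjusted p = 0.0187) were also called higher in macrophages, which made 4 of 9. With that pool the differences were 0.81 for Gzma (SE 0.89, limma adjusted p = 0.629) and 0.21 for Ccl5 (SE 0.63, limma adjusted p = 0.887). The other 5 genes lay between -0.57 (Klra8) and 0.36 (Gzmb), with limma adjusted p from 0.410 to 0.990.

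The companion lists were read for macrophages minus wild-type MDPs as well, where 11.4% of all genes were called higher and 12.2% lower. Of 26 receptor genes 5 were higher, S1pr5 (5.46), Cd244a (5.01), Cd7 (1.70), Klrk1 (1.31) and Klrb1b (0.64), and Klrb1f was lower (-1.29). Of 26 granule, cytokine and signalling genes Fcer1g (2.09), Sh2d1b1 (1.63) and Tyrobp (0.95) were higher, and Ccl3, a chemokine (-2.51), and Lgals1 (-1.30) lower. Id2 (3.14), which blocks E proteins in innate lymphoid and dendritic cells, Zbtb16 (1.98), Nfil3 (1.77), Prdm1 (1.63) and Zeb2 (1.51) were higher, 5 of 11 transcription factors. Without macrophage pool 2, macrophage pool 3 or wild-type pool 1, 3 receptor genes were called in place of 6.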

How the data were processed

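RNA of 17 pools was hybridised to Affymetrix arrays. The authors deposited log2 values made with Affymetrix Expression Console and RMA, per the submitters' processing notes, which corrects background, quantile-normalizes and summarises probes; software versions, the genome build and the arrays that entered each normalization were not stated. Of 45037 probe sets, 28898 had 1 gene symbol in the platform annotation, 551 several and 15588 none. The probe set with the highest mean stood for its gene (17097 genes), with no filter on low values. One limma 3.58.1 fit in R 4.3.3 (lmFit, eBayes, two-sided) with 1 mean per group on all 17 arrays gave differences, SE and Benjamini-Hochberg adjusted p over 17097 genes, called under 0.05. P-values measure the spread between pools within all 6 groups, granulocytes included, and the number of pools limits the precision. The step was tested on simulated data. The members and lists were chosen with earlier results of these data known. Named genes are the 9 members, Irf8, the sort-gate genes, of each list the 4 highest in granulocytes and any gene a count of 5 or fewer refers to, and the 10 most alike by correlation; further list genes were named after their values were seen. Alternatives were another probe set rule, normalization, a filter, another fit, array weights, a replicate block and leaving out each array.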

Additional observations from a re-analysis of the deposited data

How the results depend on the processing

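The counts of the 9 genes called were 0 for knockout-labelled minus wild-type MDPs in every setting run. For VENUS-negative minus VENUS-positive MDPs the count of 2 became 1 in a fit of only the groups compared and ranged from 1 (without VENUS-negative pool 2) to 3 (without VENUS-positive pool 1) with single arrays left out. A fit without 1 of the 2 VENUS-negative pools assumes that the lone array varies like the other groups. For macrophages minus wild-type MDPs the count of 2 ranged from 2 to 4, with 4 without wild-type pool 3. Counts over all genes moved as well: 155 for the knockout label became 46 in the fit of only those groups, 259 with array weights and 103 without wild-type pool 1, and 1003 for VENUS became 459 in the fit of only those groups. Klrd1 in the VENUS comparison passed the threshold with array weights (adjusted p = 0.0496), which made 3 genes called, and with a filter on dim genes (0.0419), which kept 5 of the 9 genes and left out Gzmb, so that its 2 called genes were Nkg7 and Klrd1. The other settings, probe set rule, every probe set as a feature, renewed quantile normalization and an intensity trend, left the 3 counts at 0, 2 and 2. The median granulocyte difference ranged from 2.75 to 3.24 against macrophages and from 2.78 to 3.58 against wild-type MDPs with single arrays left out. Causes were not tested.

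Pool numbers were shared between groups without a label that pairs them. Deviations of same-numbered pools correlated at -0.02 to 0.09 in the 3 tested comparisons. In the group compared, 1 of 3 knockout-labelled, 1 of 3 macrophage and 1 of 2 VENUS-negative pools correlated best with the pool of its own number. The numbers were not taken to pair the samples. Deviations of the 2 VENUS-negative pools mirror each other, so this check cannot decide on pairing in the VENUS comparison. With a replicate block, in a fit of only the groups compared, 0 of the 9 genes were called for VENUS (adjusted p = 0.186 for Gzmb and 0.0739 for Nkg7), and all genes called were 2 for the knockout label and 98 for VENUS.

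Signs turned only for differences that the fit over all arrays did not call. With single arrays left out, the knockout-label differences ranged from -2.19 to 0.15 for Gzma, from -0.096 to 0.024 for Gzmb and from -0.28 to 0.011 for Ncr1. In the VENUS comparison they ranged from -0.0053 to 0.19 for Klra8, from -0.46 to 0.093 for Prf1 and from -0.33 to 0.020 for Ncr1. For macrophages minus wild-type MDPs they ranged from -0.016 to 2.33 for Gzma, from -0.99 to 0.15 for Klra8, from -0.35 to 1.26 for Ccl5, from -0.20 to 0.32 for Tbx21 and from -0.21 to 0.080 for Ncr1. In the VENUS comparison, Klra8 was -0.0053 with the replicate block and Prf1 0.0010 as the mean of its probe sets, and Tbx21 was 0.098 with array weights for macrophages minus wild-type MDPs. Gzmb, Klra8, Tbx21 and Ncr1 lay under the lower quartile of the arrays in macrophages, so their differences from macrophages rest on dim signal.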
